A study of Mus musculus with 4 samples.

Results

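The splicing of cassette exons was compared between cortex at postnatal day 1 (P1) and whole brain at embryonic day 18 (E18), each from mice labelled wild type. A cassette exon is an internal exon that is joined into some copies of an mRNA and left out of others, and the tables hold 9319 of them in 10962 exon trios, out of 228333 trios of all kinds. Each trio consists of that exon and the exon before and after it. Exons entered the comparison when the 3 junctions of the trio held at least 20 reads in each library, which left 6726 of the 9319. An exon found in several trios was represented by the one whose junctions carried most reads in the 4 libraries of the series together. The measure was the percent spliced in (PSI), the share that includes the exon among transcripts joining the exons of its trio. All differences are given as P1 minus E18 in PSI points.

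Each of the 4 groups of the series has 1 library, and 2 of the groups are compared here. The E18 library was made from whole brain of wild-type embryos and pools 2 brains, and the sequencing library was not strand specific. The P1 library was made from dissected cortex of animals labelled wild type, with a strand-specific protocol, and the number of animals in it was not given in the sources used here. Per the labels, and in the spelling used there, both come from a mixed C56Bl/6:129S2 background and carry no agent or treatment. Both were named as littermates of the conditional *Ptbp2* knockouts that make up the remaining libraries. Whether they carried the floxed allele without Cre was not given in the sources used here. In the NesKO library (E18 brain), Cre under the nestin promoter removes *Ptbp2* exon 4 in neural progenitors and their descendants. In the EmxKO library (P1 cortex), Cre from the Emx line acts in the projection neurons of the forebrain. Stage, tissue and library protocol differ together between the libraries compared and cannot be told apart. With 1 library a group no difference has a replicate check, and no p-value for stage or tissue is given.

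Around birth, postmitotic neurons extend axons and dendrites and start to form synapses, and many neuronal genes change which exons they include. The choice is made by RNA-binding proteins that sit on or near an exon and repress or promote its use, among them the polypyrimidine tract binding proteins PTBP1 and PTBP2 and the RBFOX, MBNL, CELF and NOVA families. PTBP1 is made in progenitors and glia, and PTBP2 replaces it as cells become neurons and declines later as the neurons mature. An exon whose length is a multiple of 3 adds or removes a stretch of protein without changing the reading frame, while other exons change the frame when they are skipped.

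The libraries went against their labels at one point and differed in makeup. *Ptbp2* exon 4, which an intact allele includes, was skipped in 31.5% of reads (95% Wilson interval, 29.5 to 33.7%) in the P1 library labelled wild type, against 0.225% (0.0398 to 1.26%) in E18 wild type, 82.6% in EmxKO and 100% in NesKO. The tissue was checked with a gene's reads on distinct junctions, scaled to 1000000 such reads in the library. Of markers of cortical projection neurons, *Emx1* (2.61 and 20.1), *Tbr1* (31.9 and 96.4) and *Fezf2* (17.8 and 51.2) were higher at P1, and *Cux2* (164 and 143), *Bcl11b* (34.2 and 18.2) and *Slc17a7* (84.6 and 74.4) were lower. All 14 markers of subcortical, midbrain and hindbrain neurons were lower at P1 (summed level 304 and 29.6), and *Pax2*, *Slc6a5*, *Barhl1* and *Tfap2b* were at 0 there. The choroid plexus list was at 1004 at E18 and 0.336 at P1, and the blood list at 3105 and 620. The levels were 372 and 254 for astrocytes, 554 and 407 for progenitors (3 of 7 markers higher at P1, among them *Top2a* at 77.5 and 89.5, and 4 lower, among them *Vim* at 338 and 229), 145 and 70.3 for endothelium, 95.4 and 79.7 for the oligodendrocyte lineage, and 55.6 and 30 for microglia. *Xist* was at 0.0996 at E18 and 195 at P1, while the Y-linked *Eif2s3y* was at 60.7 and 0.036 (genes chosen after their values were seen), so the sex of the animals differed as well. In the knockouts *Xist* ran the other way, at 50.4 in NesKO E18 and 0.0722 in EmxKO P1, and *Eif2s3y* was at 18.4 and 31.7. The P1 library also stood apart from the other 3, with 279 of 9487 genes more than 2-fold above all of them and 46 more than 2-fold below, against 18 and 4 for E18 wild type. EmxKO P1 had 1 and 90 such genes, and NesKO E18 18 and 4. In bulk tissue, fewer cells of a type and less RNA per cell cannot be told apart, and the part of these differences in the exon values below was not tested.

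Sequences of coding exons from the main groups of genes described in the paragraphs that follow are shown first, since their lengths and sequences identify the isoforms concerned. They are a selection and not a ranking by size, and are written 5′ to 3′ from the matched GENCODE transcripts, with the cassette exon in capitals and 15 bases of each neighbouring exon in lower case. The first 7 were included more at P1.
Camk2b exon of 45 nt: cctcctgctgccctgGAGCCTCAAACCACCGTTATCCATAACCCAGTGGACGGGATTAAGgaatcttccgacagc
Kif1a exon of 27 nt: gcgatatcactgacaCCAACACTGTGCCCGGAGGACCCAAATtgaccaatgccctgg
Evl exon of 63 nt: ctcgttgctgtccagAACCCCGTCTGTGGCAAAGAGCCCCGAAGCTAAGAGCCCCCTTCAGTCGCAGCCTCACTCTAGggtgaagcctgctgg
Dmtn exon of 75 nt: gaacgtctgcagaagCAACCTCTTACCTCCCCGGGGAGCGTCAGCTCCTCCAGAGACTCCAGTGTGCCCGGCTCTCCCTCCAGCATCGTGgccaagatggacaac
App exon of 57 nt: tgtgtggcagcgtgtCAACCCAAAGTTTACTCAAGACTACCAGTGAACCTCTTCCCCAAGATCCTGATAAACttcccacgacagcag
Cadm1 exon of 84 nt: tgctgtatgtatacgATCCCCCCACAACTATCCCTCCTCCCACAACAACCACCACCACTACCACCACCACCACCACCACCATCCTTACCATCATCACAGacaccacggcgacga
Ptbp1 exon of 78 nt: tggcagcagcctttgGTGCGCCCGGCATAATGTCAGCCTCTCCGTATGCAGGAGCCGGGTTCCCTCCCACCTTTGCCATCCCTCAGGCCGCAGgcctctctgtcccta

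The next 6 exons were included less at P1, and the last 3 are short exons of synaptic and channel genes.
Agap1 exon of 159 nt: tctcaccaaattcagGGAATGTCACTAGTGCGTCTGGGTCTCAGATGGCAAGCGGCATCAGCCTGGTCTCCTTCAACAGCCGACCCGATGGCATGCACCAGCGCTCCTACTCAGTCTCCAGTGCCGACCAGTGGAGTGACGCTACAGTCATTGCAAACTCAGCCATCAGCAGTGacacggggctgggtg
Cttn exon of 111 nt: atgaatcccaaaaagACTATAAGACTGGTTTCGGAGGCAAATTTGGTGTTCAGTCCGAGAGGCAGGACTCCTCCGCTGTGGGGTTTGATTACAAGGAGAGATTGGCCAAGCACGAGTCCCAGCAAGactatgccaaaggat
Sphkap exon of 87 nt: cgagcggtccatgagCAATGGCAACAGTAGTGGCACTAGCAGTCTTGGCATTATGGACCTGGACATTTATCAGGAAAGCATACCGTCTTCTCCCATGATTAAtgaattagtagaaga
Erc2 exon of 36 nt: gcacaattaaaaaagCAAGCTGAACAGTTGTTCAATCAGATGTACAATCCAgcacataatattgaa
Kcnip1 exon of 33 nt: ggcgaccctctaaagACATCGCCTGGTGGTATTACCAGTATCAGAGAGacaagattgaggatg
Nrxn2 exon of 24 nt: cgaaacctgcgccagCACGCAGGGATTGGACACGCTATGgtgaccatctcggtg

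Of the 6726 exons compared, 1403 (20.9%) differed by at least 10 PSI points between P1 cortex and E18 brain, 608 higher at P1 (9.04%) and 795 lower (11.8%). A second PSI used junction reads only, dividing the average of the reads on both inclusion junctions by that average plus the skipping reads. An exon is named as called below where both measures passed 10 points in the same direction. This held for 1041 exons (15.5%), 464 higher at P1 (6.9%) and 577 lower (8.58%), in 857 named genes. The share that was higher at P1 was 44.6%. Most exons were close to the diagonal, with a median absolute difference of 2.6 points and a median signed difference of -0.1. Among called exons the median was 17.3 points in those higher at P1 and -18.2 in those lower.

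**Figure D1:**
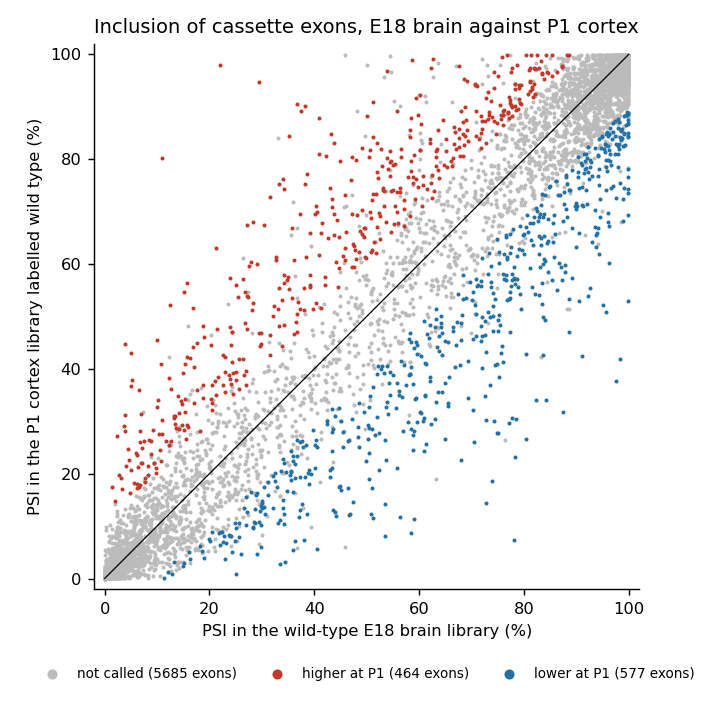
Each point is 1 of the 6726 cassette exons, with its PSI (%) in the wild-type E18 brain library on the x axis and in the P1 cortex library labelled wild type on the y axis; red points are the 464 exons called higher at P1 by both measures, blue points the 577 called lower, grey points the rest, and the line marks equal PSI. Called exons lie on both sides at every middle level of E18 inclusion, and grey points far from the line passed 10 points by the deposited ratio but not by junction reads.

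Large differences were found in both directions. Both measures passed 20 points in 321 exons (137 higher at P1 and 184 lower), 30 points in 42 and 53, and 40 points in 9 and 18. Inclusion crossed 50% in 277 called exons, from below to above in 113 and from above to below in 164. In 123 genes at least 2 exons were called, and in 47 genes exons of the same gene were called in opposite directions. Reads of the 2 libraries were also compared exon by exon with a two-sided Fisher's exact test, which says whether these libraries differ beyond counting error and nothing about other animals. With Benjamini-Hochberg adjustment over all 6726 exons, 1375 (20.4%) had an adjusted p below 0.05, and 753 (11.2%) had this together with 10 PSI points. The 95% interval of the difference in junction-read PSI left out 0 in 866 of the 1041 called exons.

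At the cutoff itself, exons on either side were hardly different. *Afg3l1* (116 nt) was just inside, at 82.1 at E18 and 92.1 at P1, and *Eif4h* (60 nt) just outside, at 73.8 and 83.7. In the other direction *Rabep1* (105 nt) was just inside, at 91.3 and 81.3, and *Sptan1* (60 nt) just outside, at 46.7 and 36.8. The widest differences of all rested on few reads. The *Nsun7* exon of 59 nt was at 22.0 at E18 and 97.9 at P1 with 28 and 21 junction reads, and the *Cacnb4* exon of 160 nt at 78.2 and 7.3 with 28 and 67. By junction reads the *Cacnb4* difference was -34.8 points (95% interval, -56.6 to -12.0). The largest changes described next were therefore taken from exons covered by 100 or more junction reads in each library, 15 in each direction and 1 a gene.

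Among the 15 largest increases at P1 were exons of proteins that shape the actin and microtubule cytoskeleton. In *Camk2b*, which encodes the β subunit of the calcium/calmodulin-dependent kinase II and bundles actin in dendritic spines, the exon of 45 nt (chr11:5881073-5881117, minus strand, exon 16 of 24; all coordinates are mm9) had a PSI of 40.9 at E18 and 87.9 at P1. Its junction-read PSI was 32.2 (95% interval, 28.9 to 35.7) and 83.5 (81.7 to 85.2), a difference of 51.3 points (47.4 to 55.1). The same exon was near full inclusion in both knockouts, at 97.1 in NesKO and 99.3 in EmxKO, so that the knockout libraries differed by little where those labelled wild type differed by 47.0 points. *Kif1a*, the kinesin that carries synaptic vesicle precursors along axons, included its exon of 27 nt (chr1:94962129-94962155) at 23.9 at E18 and 57.4 at P1, with 2676 and 1613 skipping reads. *Evl*, an Ena/VASP protein that promotes actin filament growth, had an exon of 63 nt (chr12:109921558-109921620) at 10 and 45.5. *Dmtn*, the actin-bundling protein dematin, had an exon of 75 nt (chr14:71017762-71017836) at 15.8 and 56.4. In these 3 genes both knockout libraries lay near the library of their own stage, within 4 points.

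Adhesion and membrane proteins made up a further pair. *App* exon 8 (57 nt, chr16:85040496-85040552), which encodes the OX-2 segment of the amyloid precursor protein, was at 12.4 at E18 and 52.2 at P1 by the deposited ratio and at 37.9 (34.3 to 41.6) and 65.9 (62.3 to 69.4) by junction reads. The direction was shared, and the size was 39.8 points by one measure and 28 by the other. Skipping in this trio is counted only in transcripts that hold the exon before it. The values are therefore not a share of all *App* transcripts. *Cadm1*, an immunoglobulin adhesion molecule that spans the synaptic cleft, had an exon of 84 nt (chr9:47626817-47626900) at 15.1 and 54.7, and by junction reads at 20.8 (17.6 to 24.3) and 67.7 (64.0 to 71.2).

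The remaining large increases lay in enzymes, a splicing regulator and less well known genes. *Uba3*, the catalytic subunit of the NEDD8-activating enzyme, had an exon of 42 nt at 30.5 and 67.5, with no read on its upstream junction at E18. In *Shmt2*, mitochondrial serine hydroxymethyltransferase, an exon of 80 nt was at 43.2 and 84.8. *Mpdu1*, needed for the use of dolichol-linked mannose in glycosylation, had an exon of 121 nt, found only in transcripts marked for nonsense-mediated decay, at 34.2 and 74.4, and the exon of 96 nt in the untranslated region of the centriolar appendage gene *Fbf1* was at 35.1 and 84.4, with a junction-read difference of 31.8 points (23.7 to 39.6) against 49.3. The *Capn15* exon of 167 nt went from 21.2 to 63.1 by the deposited ratio, but its junction-read difference was 10.3 points with an interval of -2.0 to 23.2. The exon of 373 nt in *2610005L07Rik* was at 51.2 and 91.0, a difference of 39.8 points against 64.8 by junction reads, and values of such a locus, which has near copies in the genome, are uncertain. An exon of 66 nt on chromosome 16 matched no annotated gene by its lengths and was at 38.2 and 90.2, with 6 and 0 reads on its upstream junction.

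In *Aen* the order of the P1 and E18 libraries was opposite in the knockouts, and in *Ptbp1* the knockouts differed by little. The *Ptbp1* exon of 78 nt (chr10:79322862-79322939), which lies in the linker region of the protein and lengthens it, was at 47.3 at E18 and 80.4 at P1 in the libraries labelled wild type, with 170 and 328 skipping reads. It was at 47.9 in NesKO and 43.3 in EmxKO, which differed by -2.04 points by junction reads. On the scale used for the markers, *Ptbp1* was at 87.2 at E18 and 257 in the P1 library labelled wild type, against 115 in NesKO and 113 in EmxKO. The *Aen* exon of 601 nt, in a nuclease gene induced by p53, was at 58.7 at E18 and 98.9 at P1, while NesKO was at 69.8 and EmxKO at 43.4. For both genes the P1 library labelled wild type was the one that stood apart.

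The largest decreases at P1 ran from -38.2 to -55.2 points. In *Sphkap*, an anchor for protein kinase A, the exon of 87 nt (chr1:83262544-83262630) had a PSI of 73.9 at E18 and 18.7 at P1. *Agap1*, a GTPase-activating protein for ARF GTPases that acts in endosomal traffic, had an exon of 159 nt (chr1:91662881-91663039) at 75.0 and 27.7, and its junction-read PSI of 75.3 (72.8 to 77.7) and 27.1 (24.7 to 29.6) was nearly the same. *Cttn*, the actin-binding protein cortactin, included its exon 11 of 111 nt (chr7:151636883-151636993), part of the region of actin-binding repeats, at 68.0 and 22.6, with 304 and 700 skipping reads. In *Adam23*, a membrane protein of neurons that binds the secreted LGI1, the exon of 91 nt (exon 25 of 26) was at 82.4 and 34.

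Nuclear proteins formed a further share of the decreases. The exon of 767 nt in *Phf14*, a PHD-finger protein that binds histones, was at 84.2 and 34.1. *Nasp*, a chaperone of linker histones, had an exon of 975 nt at 83.6 and 42.6, and its junction-read PSI was 74.2 (69.9 to 78.0) and 21.8 (18.9 to 25.1). The 77 nt exon in the untranslated region of *Morf4l2*, a chromatin protein of the MRG family, was at 74.8 and 27.7, with 523 and 2392 skipping reads. Its downstream junction had 2203 and 1118 reads and its upstream one 100 and 430. The difference rested on the downstream junction, since upstream reads were in nearly the same proportion to skipping reads in both libraries. *Celf1*, a splicing and mRNA stability regulator, had an exon of 152 nt at 78.4 and 23.2, with 6 reads on its upstream junction against 457 on the downstream one at E18. Others were *Npcd* (291 nt, 80.4 and 26.7), *Dzank1* (128 nt, 88.6 and 47.0), *Fhod3* (357 nt, 53.5 and 14.3), the peroxidase gene *Gpx8* (262 nt, 92.2 and 54.0), the noncoding *1810032O08Rik* (192 nt, 95.2 and 52.1) and an exon of 189 nt on chromosome 11 without a gene name (78.5 and 30.5). The *Fhod3* difference was -39.2 points by the deposited ratio and -10.8 by junction reads (95% interval, -19.5 to -3.6).

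**Figure D2:**
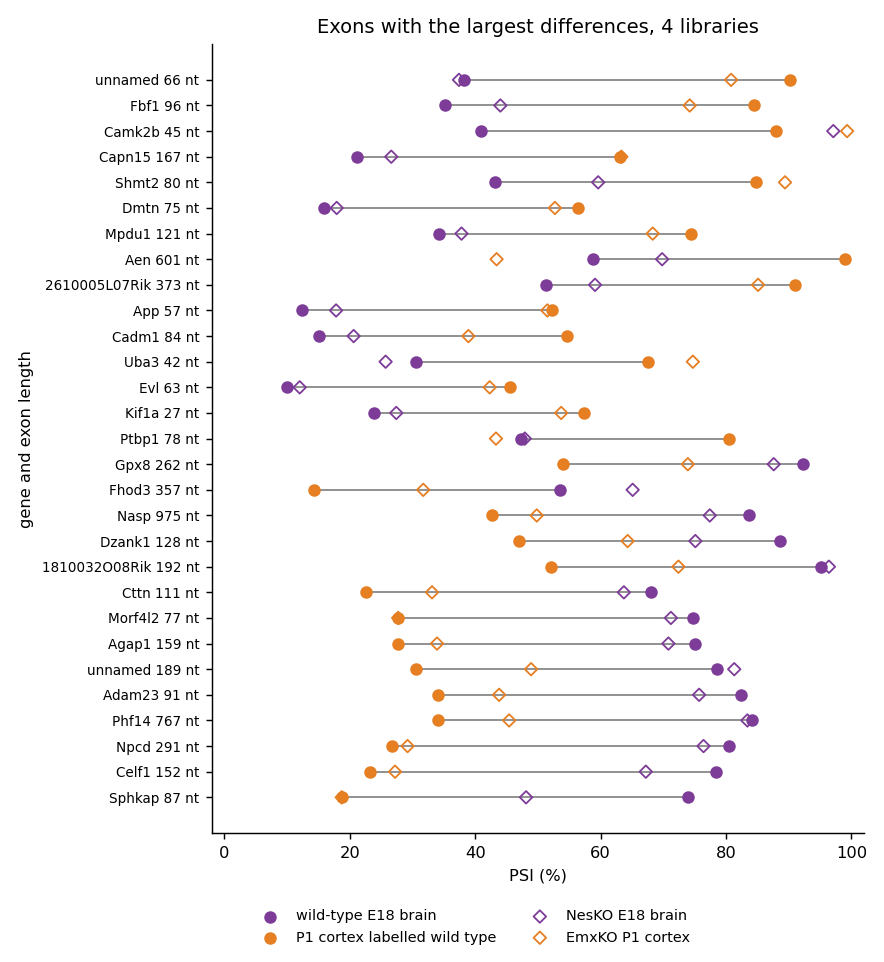
For 29 of the exons with the largest differences, filled circles give the PSI (%) in wild-type E18 brain (purple) and in the P1 cortex library labelled wild type (orange), and open diamonds give NesKO E18 (purple) and EmxKO P1 (orange); rows are ordered by the difference and lines join the libraries compared. Both knockouts lie nearer the library of their own stage than the other in 25 exons and not in *Camk2b*, *Aen*, *Ptbp1* and *Gpx8*, and in 15 exons a knockout lies 10 points or more from the library of its own stage.

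Genes were then grouped by role into 9 lists. Over all exons compared, 6.9% were called higher and 8.58% lower with a median difference of -0.1, and each list is given beside that. No list was tested, and nothing particular to a list is claimed.

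Among postsynaptic scaffolds and calcium signalling genes, 4 of 62 exons were higher at P1 (6.45%) and 4 lower (6.45%), with a median of -0.4. Those higher included exons of *Camk2b* (45 nt, above), of *Sorbs2*, a spine and focal adhesion adaptor (57 nt, 59.8 and 88.4), and of the scaffold gene *Dlgap2* (99 nt, 84.2 and 99.9). By junction reads the *Sorbs2* difference was 17.9 points (95% interval, 0.431 to 43.6), and the interval of the *Dlgap2* exon held 0 (-6.45 to 34.0). Those lower included *Dlg4*, which encodes PSD-95, the main scaffold of excitatory synapses. Its exon of 165 nt near the start of the gene was at 87.7 and 73.7, with 201 and 643 skipping reads and only 27 and 55 reads on its downstream junction. An overlapping exon of 66 nt with the same skipping reads was at 93.1 and 85.7. *Cask*, a scaffold kinase of the MAGUK family, had an exon of 36 nt at 88.3 and 75.2, and the *Dlgap2* exon of 42 nt was at 76.5 and 65.5 on 45 and 77 reads, with a junction-read interval of -33.9 to 8.76.

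Of 23 exons in neurotransmitter receptor genes, 1 was higher at P1 (4.35%) and 3 were lower (13%), with a median of -0.5. The exon that was higher was in *Gria2*, the AMPA receptor subunit that sets calcium permeability, at 60.5 and 71.1 (115 nt). With these introns it matched only transcripts marked for nonsense-mediated decay, and it is untranslated in the one used. Its inclusion junctions were uneven, with 354 upstream and 1392 downstream reads at E18 and 349 and 1085 at P1. The kainate receptor gene *Grik1* had its exon of 87 nt at 30.5 and 17.4 and that of 45 nt at 32.6 and 20.2. The metabotropic glutamate receptor gene *Grm5* had an exon of 204 nt, annotated in a noncoding transcript, at 60.8 and 30. It had 6 and 15 upstream, 44 and 39 downstream and 27 and 71 skipping reads, so its difference rested on the downstream junction. The junction-read differences of several of these exons were of other sizes, at 18.1 points (95% interval, 14.4 to 21.8) in *Gria2*, -26.6 (-38.2 to -14.1) in the *Grik1* exon of 87 nt and -20.5 (-35.9 to -4.41) in *Grm5*.

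Presynaptic release and endocytosis genes had 8 of 115 exons higher at P1 (6.96%) and 17 lower (14.8%), with a median of 0. Those lower included genes of the active zone, where vesicles fuse. *Rims1*, which ties synaptic vesicles to calcium channels, had 2 such exons, of 84 nt (72.8 and 14.5) and of 183 nt (44.2 and 12.0). They rested on few junction reads, 63 and 56 for the exon of 84 nt and 45 and 64 for that of 183 nt. By junction reads the differences were -54.9 points (95% interval, -69.2 to -35.3) and -22.0 (-39.7 to -5.16). *Erc2*, an active zone scaffold that binds RIM proteins, had an exon of 36 nt at 69.4 and 34.4, and its junction-read PSI was 57.4 (53.5 to 61.3) and 27.3 (24.1 to 30.8). *Cadps*, which primes dense-core vesicles, had an exon of 147 nt at 56.9 and 28.2, and *Cltb*, the clathrin light chain b, had its exon of 54 nt at 63.7 and 35.6 on 5840 and 2943 junction reads.

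Other presynaptic exons were higher at P1. *Dnm1l*, the dynamin-related GTPase that divides mitochondria, had an exon of 39 nt (chr16:16342790-16342828) at 5.0 and 36.8, with 448 and 259 skipping reads, and NesKO and EmxKO were at 3.4 and 22.2. *Rims2* had an exon of 66 nt at 54.6 and 73.9, unlike the exons of *Rims1* above. The *Cadps* exon of 18 nt, untranslated in the matched transcript, was at 53.9 and 80.2, opposite in direction to its exon of 147 nt. The exon of 18 nt had no read on its upstream junction in either library. *Itsn2*, an endocytic scaffold, had an exon of 81 nt at 60.8 and 75.1, and the SNARE regulator *Stxbp2* had one of 82 nt at 48.6 and 62.3, whose junction-read interval held 0 (-3.43 to 27.6).

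Ion channels and pumps had the highest share of called exons of the lists, with 7 of 61 higher at P1 (11.5%) and 11 lower (18%), and a median of -0.3. *Kcnip1*, an auxiliary calcium sensor of Kv4 potassium channels, had an exon of 33 nt (chr11:33551540-33551572) at 40.6 and 5.7, with junction-read PSI of 27.4 (22.0 to 33.5) and 3.4 (1.9 to 6.0). *Kcnma1*, the BK potassium channel, had an exon of 174 nt at 72.8 and 30.2. The plasma membrane calcium pumps *Atp2b1* and *Atp2b3* each had an exon of 154 nt that was lower, at 72.5 and 49.1 in the former and 40.1 and 21.1 in the latter. *Itpr1*, the calcium release channel of the endoplasmic reticulum, had 2 exons that were higher, of 51 nt (38.7 and 77.2) and 45 nt (82.8 and 97.5). The bicarbonate transporter gene *Slc4a4* (97 nt, 28.2 and 51.3) and *Ryr1* (18 nt, 70.8 and 89.2) were higher as well, and *Slc4a4* was at 23.3 in NesKO and 21.6 in EmxKO. The junction-read interval for *Ryr1* held 0 (-10.8 to 45.6), and its upstream junction had no read in either library.

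Cell adhesion and matrix genes had 11 of 92 exons higher at P1 (12%) and 10 lower (10.9%), with a median of -0.2. Besides *App* and *Cadm1*, *Fn1* (fibronectin) had an exon of 270 nt at 48.0 and 79.9, and by junction reads at 41.8 (34.4 to 49.6) and 84.0 (79.9 to 87.4). The receptor phosphatase gene *Ptprf* had exons called both ways, with that of 27 nt at 68.1 and 89.3 and that of 306 nt at 39.0 and 18.1. The exon of 306 nt had 37 and 112 upstream, 265 and 117 downstream and 199 and 470 skipping reads. Its lower value thus rested on the downstream junction only. *Ptprk* had an exon of 12 nt at 58.2 and 84.3. *Nrcam*, an adhesion molecule of axons and nodes of Ranvier, had an exon of 153 nt at 38.1 and 7.4, with 81 and 218 skipping reads. *Nrxn2*, a presynaptic neurexin that binds neuroligins, had an exon of 24 nt at 64.4 and 42.6. *Cadm3* (102 nt) was at 66.4 and 47.2, opposite to *Cadm1*, and *Ptprz1* (21 nt) at 39.0 and 20.7.

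In cytoskeleton and motor genes 12 of 161 exons were higher at P1 (7.45%) and 18 lower (11.2%), with a median of -0.2. *Kifap3*, the adaptor that joins kinesin-2 to cargo, had an exon of 66 nt at 46.8 and 12.4, with 477 and 1630 skipping reads. *Map7d2* (99 nt), a microtubule-associated protein that recruits kinesin-1, was at 96.3 and 67.2, and *Clasp1* (117 nt), which stabilises microtubule plus ends, was at 60.2 and 31.8. The motor gene *Myo6* had an exon of 27 nt at 65.8 and 38.4. Higher beside *Kif1a* and *Evl* was *Dync1li2*, a dynein light intermediate chain (42 nt, 77.5 and 96.6). *Arpp21* (60 nt, 13.5 and 31.1), with no read on its upstream junction in either library, was higher too. So was an untranslated exon of *Add1*, which encodes the membrane skeleton protein adducin (279 nt, 4.4 and 24.8).

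**Figure D3:**
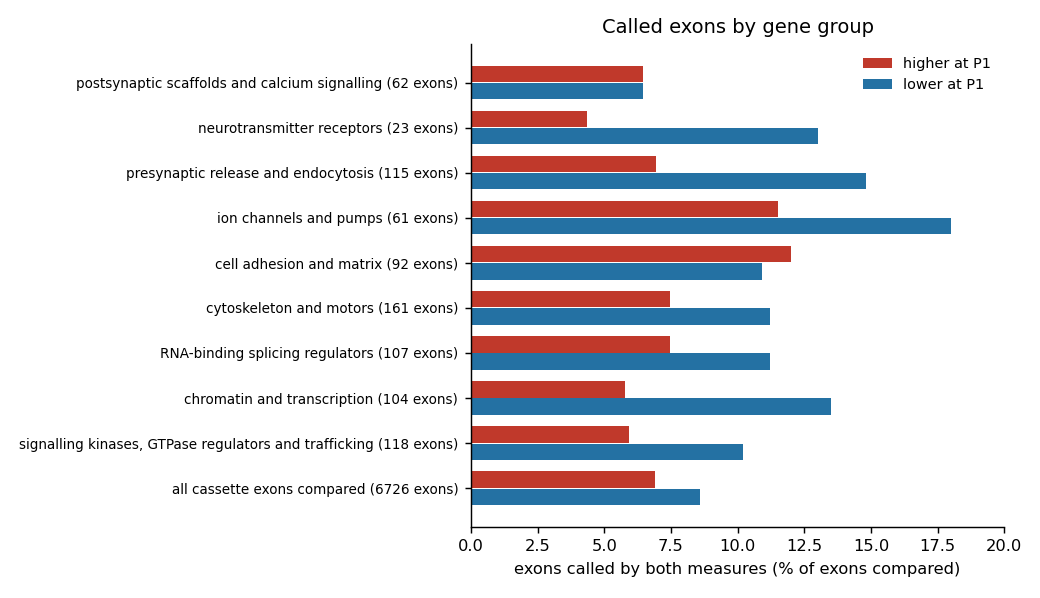
For each of the 9 gene lists and for all 6726 exons compared, bars give the percentage of exons called higher (red) and lower (blue) at P1 by both measures, from 0. Ion channels and pumps had the tallest bar, with 18% lower, and postsynaptic genes had equal bars of 6.45%, against 6.9% and 8.58% over all exons.

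Splicing regulators themselves had 8 of 107 exons higher at P1 (7.48%) and 12 lower (11.2%), with a median of -0.2. *Mbnl1* and *Mbnl2*, muscleblind proteins that promote mature splicing patterns, had higher inclusion at P1 of an exon of 54 nt (53.8 and 96.8) and of 95 nt (55.4 and 79.1). The *Mbnl1* values rested on 35 and 169 junction reads, and its interval for the difference in junction-read PSI was 10 to 49.1 around 27.6 points. By that measure the *Mbnl2* difference was 35.7 points (17.9 to 51.3). *Rbfox2* had an exon of 51 nt at 45.9 and 73.2. *Rbm39* was called both ways, with an exon of 73 nt at 26.4 and 57.2 and one of 274 nt, annotated only in transcripts marked for nonsense-mediated decay, at 74.5 and 40.8 (-19.1 points by junction reads). *Tra2b*, an SR-like splicing activator that limits its own level through an exon with stop codons, had an exon of 276 nt at 29.7 and 12.8, with 808 and 1966 skipping reads. Exons in untranslated leaders of *Raly* (83 nt, 62.0 and 37.6) and *Hnrnpc* (26 nt, 72.1 and 49.9) were lower, but with uneven inclusion junctions at E18. *Raly* had 844 and 702 upstream, 3648 and 775 downstream and 1182 and 1099 skipping reads. *Hnrnpc* had 1681 and 920 upstream, 487 and 1021 downstream and 691 and 1464 skipping reads. The *Raly* difference thus rested on the downstream junction and that of *Hnrnpc* on the upstream one, and the other junction of each showed little difference.

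Chromatin and transcription genes had 6 of 104 exons higher at P1 (5.77%) and 14 lower (13.5%), and their median of -1.55 was the lowest of the lists. *Ncor1*, a corepressor of nuclear receptors, had an exon of 174 nt at 63.1 and 30.5. *Smarcc2*, a core subunit of the BAF chromatin remodeller, had an exon of 93 nt at 75.6 and 43.1, and *Chd3*, the helicase of the NuRD complex, had one of 102 nt at 97.6 and 72.7. The *Smarcc2* exon was at 83.7 in NesKO and 72.9 in EmxKO, a difference of -10.8 points against -32.5. *Zmynd11*, a reader of methylated histone H3, had an exon of 162 nt at 67.9 and 40.8, and *Gtf2ird1* one of 60 nt at 72.8 and 43.2. Higher at P1 was *Zmynd8*, a chromatin reader that binds the spine protein drebrin (12 nt, chr2:165678368-165678379, 51.3 and 73.4). *Lef1*, the Wnt-dependent transcription factor (41 nt, 47.3 and 69.6), and *Mta1* (51 nt, 40.4 and 52.6) were higher as well. So were *Tcf12* (62 nt, only in transcripts marked for nonsense-mediated decay, 10.5 and 24.5) and *Smarce1* (44 nt, noncoding transcript, 77.2 and 87.8). The junction-read interval held 0 for *Lef1* (-9.70 to 41.3) and *Gtf2ird1* (-49.2 to 0.44). The exons of *Zmynd8*, *Smarce1* and *Gtf2ird1* had no read on their upstream junction in either library.

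Signalling kinases, GTPase regulators and trafficking genes had 7 of 118 exons higher at P1 (5.93%) and 12 lower (10.2%), with a median of -0.2. *Rapgef6* and *Rap1gap* act on the small GTPase RAP1 in opposite ways, the one loading it with GTP and the other helping it hydrolyse GTP. The *Rapgef6* exon of 24 nt was at 51.2 and 11.5, and the *Rap1gap* exon of 36 nt at 50 and 88.3, on 40 and 42 junction reads at E18. *Stk3*, a kinase of the Hippo pathway, had an exon of 21 nt, annotated only in transcripts marked for nonsense-mediated decay, at 33.2 and 75.2. Its upstream junction had 0 and 1 reads. The palmitoyltransferase gene *Zdhhc20* (36 nt, 43.0 and 74.6), *Plcb4* (37 nt, 28.4 and 52.5) and *Arfgap1* (281 nt, untranslated, 78.3 and 94.3) were higher. Lower were *Arhgap21* (275 nt, 47.4 and 14.6), *Arhgap44* (52 nt, 69.3 and 41.6) and *Numbl* (100 nt, noncoding transcript, 29.1 and 4.7). By junction reads the *Arhgap44* difference was -18.5 points (95% interval, -28.4 to -7.92). It rested on the downstream junction, with 134 and 124 reads beside 53 and 144 skipping reads, while the upstream junction had 26 and 82.

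Several exons in genes that the study of PTBP2 singled out differed less between these libraries. In *Ppp3ca*, the catalytic subunit of calcineurin, the exon of 30 nt was at 44.8 at E18 and 43.5 at P1, and its junction-read difference was 0.6 points (-3.0 to 4.2). The exon of 138 nt in *Dbn1*, which encodes the spine protein drebrin, was at 3.6 and 3.1 on 9296 and 10524 junction reads. The *Magi1* exon of 89 nt was at 31.0 and 39.6, that of *Braf* (120 nt) at 15.1 and 23, that of *Gphn* (108 nt), the scaffold of inhibitory synapses, at 9.1 and 12.6, and that of *Pitpnb* (85 nt) at 30.5 and 21.3. None of these 6 exons passed 10 points by the deposited ratio. By junction reads the *Magi1* difference was 12.2 points (0.813 to 23.3). The *Braf* exon rested on 34 and 87 junction reads, with a wide interval of -13.9 to 21.3. The *Ncam1* exon of 801 nt was at 55.2 and 53.3 by the deposited ratio and differed by -11.5 points (-13.5 to -9.4) by junction reads. For the *Camk2b* exon of 75 nt the ratio is listed at 0 in every library although inclusion reads were present and skipping reads were not, so no level is read from it, and 46 exons shared this feature in at least 1 of the libraries compared.

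The share of called exons and its direction varied with exon length, beside 6.9% higher and 8.58% lower over all exons. Among exons of 28 to 50 nt, 66 of 584 were higher at P1 (11.3%) and 41 lower (7.02%). The order was reversed among long exons, with 136 of 2698 exons over 100 and up to 200 nt higher (5.04%) and 227 lower (8.41%), and 11 of 275 exons of 300 nt or more higher (4%) and 28 lower (10.2%). In microexons of 3 to 27 nt the directions were equal, at 30 of 335 each (8.96%). The classes also differed in starting level, with a median E18 PSI of 66.5 in microexons, 54.4 at 28 to 50 nt, 88.2 over 100 and up to 200 nt and 86.6 at 300 nt or more. The median length was 84 nt in exons higher at P1, 102 nt in those lower and 102 nt over all. The part of starting level and of the different library protocols in these shares was not tested.

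**Figure D4:**
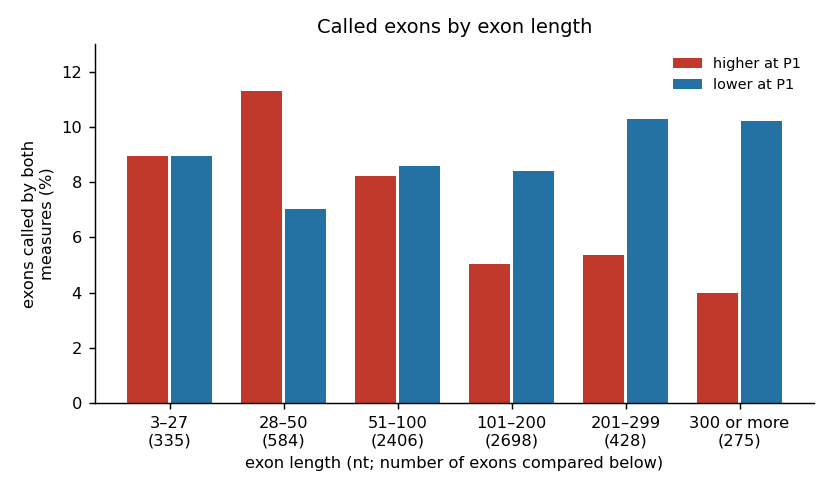
Bars give the percentage of cassette exons called higher (red) and lower (blue) at P1 by both measures in 6 classes of exon length (nt), with the number of exons compared in each class under the axis. Exons of 28 to 50 nt have the tallest red bar (11.3% against 7.02% lower), and the 3 classes over 100 nt have taller blue bars.

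Reading frame and annotation separated the exons less. Lengths were multiples of 3 in 56.0% of exons higher at P1, 55.5% of those lower and 50.7% of all. Among exons from 28 nt to under 300 nt, 7.75% of those in frame were higher and 9.28% lower, against 6.11% and 7.72% of those out of frame. Of 4126 exons annotated as coding 6.4% were higher and 8.58% lower, and of 689 untranslated exons 9.14% and 8.85%. Exons found only in transcripts marked for nonsense-mediated decay were mostly skipped, with a median PSI of 7.8 at E18, and 6.06% of 594 were higher and 7.24% lower. The median GC content was 50.3% in exons higher, 50.7% in exons lower and 50% over all, and the median upstream intron was 1904, 2537 and 1972 nt long. The share called was highest in the middle of the inclusion range, with 22.2% higher and 22.6% lower where E18 PSI was 50 to 70. Direction also depends on the starting level by construction, since an exon above 90 can only be called lower (4.82%) and one below 10 only higher (3.47%).

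The knockout libraries gave the same contrast of stage, tissue and protocol without using either library compared above. EmxKO P1 cortex minus NesKO E18 brain could be compared in 6474 of the exons, and 832 (12.9%) were called by both measures, 386 higher (5.96%) and 446 lower (6.89%), while the deposited ratio alone passed 10 points upward in 8.06% and downward in 10.1%. Of 434 exons called higher at P1 in the libraries labelled wild type, 238 were called higher in the knockout pair as well (54.8%) and 5 lower, and the difference had the same sign in 381 (87.8%). Of 551 called lower, 272 were called lower there (49.4%) and 7 higher, with the same sign in 496 (90%). Over all 6474 exons the difference in the knockout pair was above 0 in 2479 and below 0 in 3233. The median difference was smaller in the knockout pair, 13 points against 17.1 in the exons called higher and -12.3 against -18.2 in those called lower. The exons were selected on the first pair, so a smaller median in the second is a property of the selection too. Both pairs share the stage, tissue and protocol differences, and both knockouts lack PTBP2 in most or many cells, so the overlap does not separate these. *Xist* and *Eif2s3y* differed in opposite directions in the pairs, as given above.

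**Figure D5:**
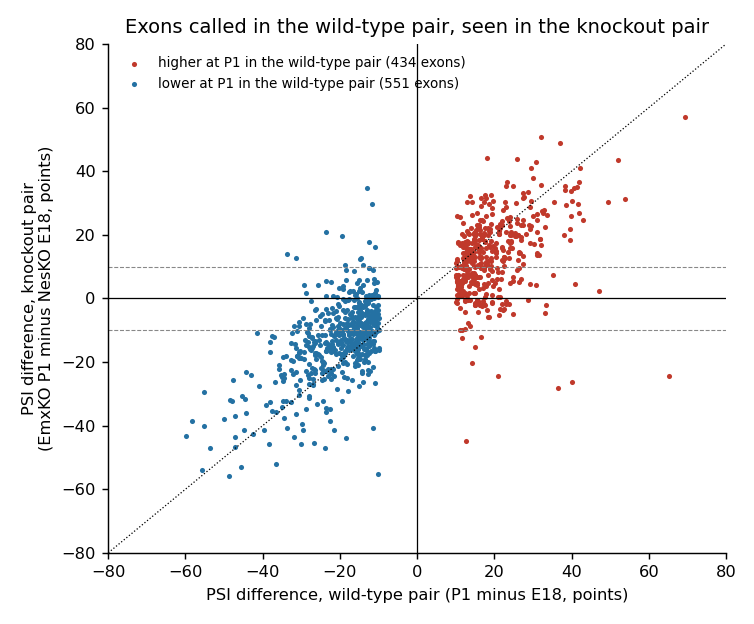
Each point is an exon called in the libraries labelled wild type and comparable in the knockouts, with its PSI difference (P1 minus E18, points) in the wild-type pair on the x axis and in the knockout pair (EmxKO P1 minus NesKO E18) on the y axis; the dotted line marks equal differences and the dashed lines 10 points. Of the 434 red points 381 lie above 0 and of the 551 blue points 496 lie below 0.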

How the data were processed

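PolyA+ RNA was sequenced as paired reads of 100 nt from TruSeq libraries, and SpliceTrap was run by the authors against its database of exon duos and trios (CASAVA, TopHat and Cufflinks are named in the submitters' processing notes, without versions there). Per the labels the genome build is mm9. In the deposited tables the inclusion ratio is a fraction from 0 to 1, estimated by the authors before and after a correction, and the corrected fraction in percent was used as PSI. The deposited junction reads are counts, not normalized. The deposited coverage signal of each exon was not used. The libraries held 50188724 (E18) and 83394001 (P1) reads on distinct junctions, and the exons compared had medians of 206 and 390 junction reads, so that 3 reads were 1.46% and 0.769% of the median total. Intervals (Wilson for a share, Newcombe for a difference, 95%) and such floors cover counting error only. The deposited tables carry no gene names. Gene names came from GENCODE vM21 (GRCm38), by equal lengths of an exon and both introns on one chromosome and strand: 209930 of 228333 trios matched by all 3 lengths, 614 by both introns and 2272 by a shared exon, and 312 of the exons compared have no name. Coordinates are mm9 as in the tables, and none were converted. Exon sequences are those of the matched transcripts.

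Exons were called at 10 PSI points. Fisher's exact test on rounded mean inclusion reads and skipping reads was adjusted by Benjamini-Hochberg over 6726 exons and compares 2 libraries, not conditions. Exons named were, per direction, the 15 largest differences called by both measures and covered by 100 or more junction reads in each library (1 exon a gene), up to 5 per gene list and direction, exons of the genes named by the study and those nearest to the cutoff. *Nsun7* and *Armcx1*, and the exons that moved opposite ways in the pairs, were chosen after their values were seen. The members and lists were chosen with earlier results of these data known. No replicate numbers or batches are in the labels. Scripts in Python 3.11.15 (scipy 1.17.1, pandas 2.3.3, numpy 2.4.6, matplotlib 3.10.9) were tested on simulated data. Some items of the lists are not reported here. Alternatives are described in the closing section.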

Additional observations from a re-analysis of the deposited data

Results flagged for a closer look

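A few exons called between the libraries labelled wild type moved the opposite way between the knockouts by both measures. The difference between the pairs was not tested. In *Aen* the exon of 601 nt differed by 40.2 points (58.7 at E18 and 98.9 at P1) and the overlapping exon of 487 nt by 36.5, while NesKO and EmxKO were at 69.8 and 43.4 and at 74.5 and 46.4. The exon of 92 nt in the untranslated region of the X-linked *Armcx1* differed by 65.2 points (29.5 and 94.7, on 77 and 355 junction reads), against 76.6 in NesKO and 52.3 in EmxKO. *Xist*, of the same chromosome, was near 0 in the libraries with the lower PSI (0.0996 in wild-type E18 and 0.0722 in EmxKO) and higher in those with the higher PSI (50.4 in NesKO and 195 in P1), and its part in this was not tested. *Erbb4*, a neuregulin receptor, had an exon of 48 nt that differed by 14.3, with 50.7 in NesKO and 30.5 in EmxKO, and *Socs6* one of 74 nt that differed by 12.6.

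Lower at P1 in the wild-type pair and higher in the knockout pair were exons of *Crem* (36 nt, -23.6), *Cadps2* (21 nt, -19.4), *Phf7* (125 nt, -14.6), *Slc9a8* (102 nt, -13.1), *Plod2* (63 nt, -11.7), *Dlgap2* (42 nt, -11) and an exon of 84 nt without a gene name (-18.6). All 7 had fewer than 100 junction reads in wild-type E18. The interval of the difference in junction-read PSI held 0 for *Crem*, *Phf7*, *Slc9a8*, *Plod2* and *Dlgap2*, and for *Socs6* above.

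Skipping of *Ptbp2* exon 4 was 31.5% in the P1 library labelled wild type, far above the 0.225% of wild-type E18, a signal outside the exons compared. The cause was not tested.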

How the results depend on the processing

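Of the 1403 exons past 10 points by the deposited ratio, the count was 486 at a cutoff of 20 points, 753 with an adjusted p below 0.05 from Fisher's exact test, 773 without the 1117 exons that differed by 10 points in either knockout against the library of its own stage, and 755 without exons whose inclusion junctions differed over 3-fold in reads. With exons labelled constitutive included it was 3916 of 123011 exons, 2208 higher and 1708 lower, so that 56.4% were higher against 43.3% of the 1403. By both measures, 1041 became 321 at 20 points, 549 without exons changed in either knockout (244 higher and 305 lower) and 563 with balanced junctions. These settings compare fewer or more exons or apply a stricter rule. A junction-read minimum of 10 or 50, no minimum, the ratio before correction, junction reads alone, another choice of trio and leaving out exons without skipping reads gave counts within 1.5 times, 1112 to 1985 and 828 to 1184. Of the exons called by both measures in the wild-type pair, 593 also passed 10 points in the same direction in the knockout pair by the deposited ratio and 573 by junction reads. For the 30 largest differences, 60 alternative values were computed, from junction reads and from the ratio before correction. Of these, 46 stayed within the counting error of the main value and 14 moved, all of the latter by junction reads. The sign changed in 0, which for junction reads was fixed by the rule that both measures share a direction. Of the exons with the largest differences, 9 of 15 higher and 5 of 15 lower remained once those changed in either knockout were left out. No paired analysis was possible because each group has 1 library and the labels carry no replicate numbers, and no replicate could be left out.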

Other observations

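Some of the widest differences lay in exons covered by too few reads to enter the largest changes above, and were chosen after their values were seen. In *Spr*, which encodes sepiapterin reductase of tetrahydrobiopterin synthesis, an exon of 53 nt was at 11 at E18 and 80.3 at P1, but with 23 junction reads at E18 the difference in junction-read PSI was 23.3 points (95% interval, 2.64 to 49.2). *Sp3*, a transcription factor that binds GC boxes, had an exon of 132 nt at 36.7 and 90.6, with a junction-read difference of 13.9 points (2.34 to 36.9). Lower at P1 were an exon of 118 nt in the NADPH oxidase organiser *Noxo1*, at 97.5 and 37.7 on 40 and 24 reads, and one of 60 nt in the phospholipase gene *Plch1*, at 98.4 and 41.8 on 26 reads in each library.

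Junction reads of *Ptbp2* itself, scaled to 1000000 per library, were at 105 in wild-type E18 brain and 325 in the P1 library labelled wild type, against 98 in NesKO and 176 in EmxKO.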
